A study of Mus musculus with 8 samples.

Results

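Ccl3, Ccl4, Ccl5, and Xcl1 are the chemokine ligand genes of T cells described here, 4 of the 20170 genes in the count matrix, chosen by name and not by their values. Their UMIs were summed per library, class, and subset over 12846 splenic mouse T cells, of which 8562 carried the class CD4 and 4284 the class CD8. The cells came from WT mice and from SDHA-KO mice (Sdha fl/fl CD4-Cre), in which a Cre driven by the Cd4 promoter deletes Sdha from the thymocyte stage at which Cd4 is expressed. Sdha encodes the catalytic subunit of mitochondrial complex II. Cells were either left unstimulated or stimulated for 48 hours with soluble anti-CD3 (5 μg/mL) and anti-CD28 (2.5 μg/mL), and each of the 4 groups had 2 10x Genomics libraries. The records number the libraries of a group but do not say whether they came from separate mice, so p-values measure the spread between libraries, which may be technical.

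The 4 genes encode small secreted proteins that attract cells through G protein–coupled receptors. CCL3 and CCL4, also called MIP-1α and MIP-1β, and CCL5, also called RANTES, draw T cells, monocytes, and dendritic cells to sites of inflammation. XCL1, or lymphotactin, signals through XCR1, which marks the conventional dendritic cells that cross-present antigen to CD8+ T cells. In mice, antigen receptor signals induce Ccl3, Ccl4, and Xcl1 within hours, whereas Ccl5 is a gene of memory and effector CD8+ cells, which hold its mRNA while at rest.

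Ccl3, Ccl4, and Ccl5 lie in a cluster on chromosome 11 of the mouse build mm10 (GENCODE annotation). Ccl3 occupies 83647844-83649355 on the minus strand, Ccl4 occupies 83662584-83664683 on the plus strand, and 13228 bases separate them. Ccl5 lies at 83525778-83530518 on the minus strand, 117325 bases from Ccl3. Xcl1 lies alone on chromosome 1 at 164931644-164935527 on the minus strand, inside the span of the processed transcript Gm20743 on the opposite strand (164863133-164936775). The strand setting of the counting is not given in the sources used here, so reads of Xcl1 and Gm20743 could not be told apart from the annotation alone. RefSeq promoters (build GRCm38) were matched for 2 of the 4 genes, Xcl1 and Ccl3, and the 250 bases before each start are printed 5′ to 3′ on the gene's own strand because both genes rose together after stimulation. Capitals mark matches, on either strand, to the letters GGAAA (the NFAT core), TGTGGT (RUNX), CACACCC (KLF), and TCACACC (T-box).
Xcl1, chr1:164935523-164935772: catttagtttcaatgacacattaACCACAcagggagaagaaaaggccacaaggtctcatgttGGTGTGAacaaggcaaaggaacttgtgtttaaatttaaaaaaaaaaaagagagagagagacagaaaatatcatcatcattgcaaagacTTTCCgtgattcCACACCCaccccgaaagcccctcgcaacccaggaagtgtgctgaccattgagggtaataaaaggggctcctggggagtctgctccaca
Ccl3, chr11:83649379-83649628: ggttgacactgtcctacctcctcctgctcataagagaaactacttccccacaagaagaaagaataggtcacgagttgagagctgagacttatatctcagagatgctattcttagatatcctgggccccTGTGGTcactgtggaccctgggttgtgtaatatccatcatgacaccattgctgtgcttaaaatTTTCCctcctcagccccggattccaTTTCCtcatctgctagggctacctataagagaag
The Xcl1 window held 1 match to the NFAT core and the Ccl3 window 2, letters that 55.6% of 32851 mouse promoters hold in a window of the same length. Each window held 1 match to the RUNX letters, found in 14.05% of promoters. The KLF letters (6.93% of promoters) and the T-box letters (3.33%) matched once each in the Xcl1 window and not in the Ccl3 window. Letters for AP-1 (TGANTCA, 6.75% of promoters), the CRE (TGACGTCA, 1.55%), NF-κB (1.41%), and the TATA box (TATAAA, 12.4%) matched in neither window, which says only that these letters are absent there.

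Libraries held 1395 to 1801 cells and 10947009 to 51398728 UMIs. Levels are given as counts per 1000000 UMIs (CPM) of the summed cells, and differences as log2 fold changes ± SE from edgeR with TMM scaling. The Sdha level was 86.5 and 86.5 CPM for unstimulated WT against 43.1 and 43.7 for SDHA-KO, and 84.5 and 81.2 for stimulated WT against 41.4 and 36.8 for SDHA-KO. Among stimulated SDHA-KO cells it was higher in the CD8 class (60.0 and 55.9 CPM) than in the CD4 class (28.9 and 28.6). Stimulated WT cells were shallower than SDHA-KO cells (median 13809 and 13745 UMIs per cell against 25117 and 25466) and had a median of 17.9% and 16.2% of UMIs from mitochondrially encoded genes, against 2.29% and 2.20%. The 6 T cell markers had UMIs in every library and class, and 23 barcode sequences occurred in more than 1 library, covering 46 cells. Trdc, the constant segment of the T cell receptor δ chain, was detected in 59.1% and 56.1% of the cells of the CD8 class in stimulated SDHA-KO libraries, against 3.67% and 4.92% in stimulated WT, and in 19.7% and 15.2% against 3.896% and 3.41% without stimulation. With each cell thinned to 5000 UMIs, the stimulated shares were 38.9% and 38.5% against 2.38% and 3.37%.

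At rest, Ccl5 had 594 to 5419 UMIs per library and class, and Xcl1 had 3 to 13 in CD4 and 47 to 99 in CD8 cells. In the CD8 class the WT libraries had 595 and 545 CPM of Ccl5 and the SDHA-KO libraries 1489 and 941 CPM, so that the genotypes did not overlap. The log2 difference of 0.96 ± 0.20 missed the threshold (edgeR quasi-likelihood test, adjusted p = 0.0568). In the CD4 class Ccl5 was at 139.8 and 153.5 CPM (WT) and 59.2 and 110.3 CPM (SDHA-KO), a log2 difference of −0.81 ± 0.26 (edgeR, adjusted p = 0.163). No member passed the edgeR test in either class, where 1.1% of all genes tested in CD4 cells and 0.947% in CD8 cells did. At an unadjusted p under 0.05, edgeR gave Ccl3, Ccl4, and Ccl5 in CD4 cells and Ccl5 in CD8 cells. The share of all genes at that threshold is not given here, so this sets no member apart. For Ccl3 and Ccl4 it rested on a single WT cell, described below. DESeq2 called 1 member in CD4 and 0 in CD8 cells after adjustment. Ccl3 was at 0 to 1 UMI per library in CD4 cells with 1 exception and at 0.370 to 0.824 CPM in CD8 cells. Ccl4 was at 7.43 and 6.48 CPM in WT CD8 cells and at 4.12 and 3.80 CPM in SDHA-KO, and at 0.0997 and 0.268 CPM in SDHA-KO CD4 cells. Xcl1 ranged from 0.443 to 1.30 CPM in CD4 cells and from 9.45 to 27.2 CPM in CD8 cells, with both genotypes in each range. Ccl5 in CD8 cells was called without unstimulated SDHA-KO replicate 2 (1.27, adjusted p = 0.0464) and without TMM scaling (1.09, 0.0349).

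The exception was a single cell. In the second unstimulated WT library, 1 CD4 Tem1 cell of 26969 UMIs held 375 of the 375 Ccl3 UMIs of its class, 434 of 439 Ccl4 UMIs, and 364 of 1117 Ccl5 UMIs. The same cell had 148 of the 165 UMIs of Ifng, the IFN-γ gene, and 67 of the 68 of Il10, an immunoregulatory cytokine gene. It had 14 Cd4 UMIs, 44, 30, and 82 UMIs of Cd3d, Cd3e, and Cd3g, and none of Cd8a, Cd8b1, Trdc, Igkc, Lyz2, Tyrobp, or Ncr1. With it, the unstimulated WT libraries stood at 0 and 51.5 CPM for Ccl3 and at 1.33 and 60.3 CPM for Ccl4. Without it, that library stood at 0 CPM for Ccl3, 0.690 CPM for Ccl4, and 103.8 CPM for Ccl5. Because the 4 groups share 1 estimate of the spread, it also widened the errors of the other comparisons of CD4 cells, and each was therefore repeated without it, a choice made after seeing the data. Leaving out the other unstimulated WT library, replicate 1, instead gave calls of lower Ccl3 (−9.95, edgeR, adjusted p = 0.00638) and Ccl4 (−8.30, 0.00122) in resting SDHA-KO CD4 cells, with only the library of that cell left on the WT side.

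The resting Ccl5 of both classes sat in a few cells. CD4 Tem1 cells were 6.004% to 9.22% of the CD4 class and held 83.2% to 97.3% of its Ccl5 UMIs, and CD8 Tcm1 cells were 9.69% to 21.2% of the CD8 class and held 75.8% to 96.6%. In the CD4 class the top 1% of cells held 89.1% and 95.0% of Ccl5 UMIs in WT and 88.0% and 88.8% in SDHA-KO. The corresponding shares in CD8 cells were 27.3% and 25.6%, and 13.1% and 20.7%. Unstimulated CD4 naive cells, which should lack effector chemokines, had a Ccl5 UMI in 0.753% to 1.84% of cells (median 7102 to 8565 UMIs), against 16.9% to 26.5% over the whole CD8 class, and a Ccl3 UMI in none. Subsets are the authors' clusters of these cells, so differences between subsets are descriptions without a test.

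Within subsets, the genotypes were compared where every library held at least 20 cells. CD8 Tcm1 cells held 3308 and 3422 CPM of Ccl5 in WT and 5808 and 5974 CPM in SDHA-KO, a log2 rise of 0.68 ± 0.12 (edgeR, adjusted p = 0.00659), in a subset where 0.496% of genes were called. That call was lost in cells without a Trdc UMI (0.66, adjusted p = 0.0764), without WT replicate 1 (0.62, 0.409), and without WT replicate 2 (0.73, 0.255), while the direction stayed. CD4 Tem1 cells held 1369 and 1577 CPM in WT and 629 and 1300 CPM in SDHA-KO, a log2 change of −0.74 ± 0.16 (edgeR, adjusted p = 0.00133), among 7.83% of genes called. That call was lost without the single cell described above (−0.48, adjusted p = 0.152), where 7.06% of genes were called, and without SDHA-KO replicate 1 (−0.32, 0.0597). In CD8 Naive2 cells Ccl5 fell by 1.62 on the log2 scale (13.8 and 49.5 CPM in WT, 12.4 and 10.6 in SDHA-KO; edgeR, adjusted p = 0.000639), and in CD8 Naive4 cells by 2.12 (268 and 280 CPM, and 112 and 0; adjusted p = 0.0331), where 2.2% and 0.999% of genes were called. The Naive2 call was lost without WT replicate 2 (−0.33, adjusted p = 0.964) and in cells without a Trdc UMI (−0.79, 0.516). Ccl5 could be tested in 7 of the 11 subsets and was called in 4, where 2.36% of the gene tests of all subsets were. The WT libraries of Naive2 lay further from each other than the lower of them from the SDHA-KO libraries.

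**Figure D1:**
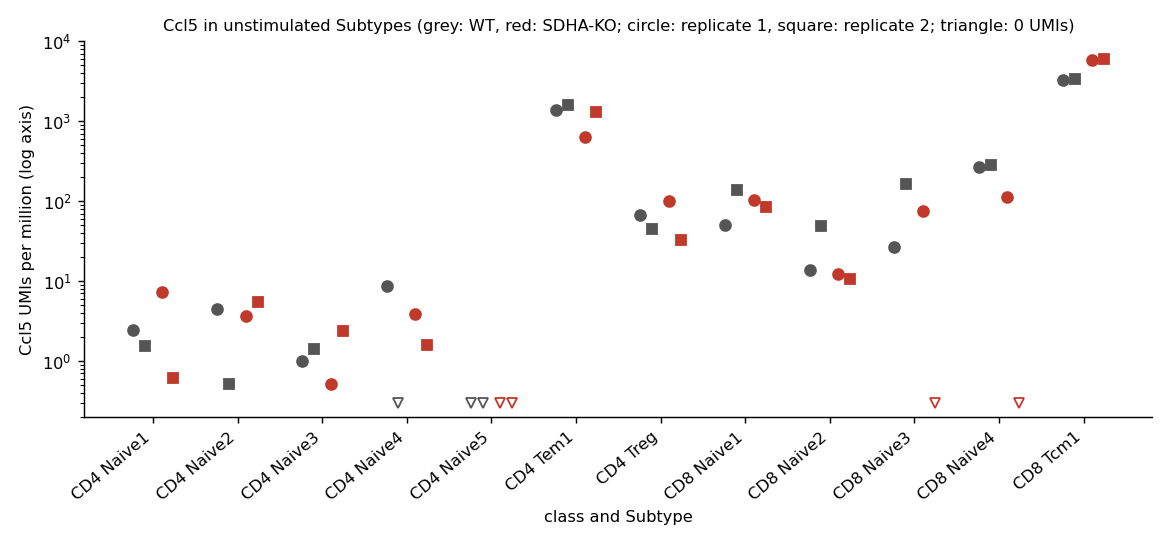
Ccl5 level (CPM, log axis) in each deposited subset of unstimulated cells, with WT in gray, SDHA-KO in red, circles for replicate 1, squares for replicate 2, and open triangles at the foot for 0 UMIs. CD8 Tcm1 (3308 to 5974 CPM) and CD4 Tem1 (629 to 1577 CPM) stand above all other subsets in every library.

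Cells with a Trdc UMI carried much of the resting Ccl5 of SDHA-KO libraries. They held 75.5% and 60.2% of the Ccl5 UMIs of the CD8 class in SDHA-KO, against 10.6% and 10.1% in WT, and 86.5% and 52.0% in the SDHA-KO CD4 class. Among CD8-class cells without a Trdc UMI, the Ccl5 level was 549.8 and 508.4 CPM for WT and 467.7 and 445.4 CPM for SDHA-KO, so the order of the genotypes turned (log2 −0.32, edgeR, adjusted p = 0.206, with 1.74% of genes called). In strict CD8 cells, which had to hold a UMI of Cd8a or Cd8b1 and none of Cd4 and Trdc, levels were 544.3 and 431.7 CPM against 306.4 and 325.9 CPM, and Ccl5 was lower in SDHA-KO (−0.72 ± 0.12, edgeR, adjusted p = 0.00644, with 1.83% of genes called). Cells of the CD8 class with a Trdc UMI held 1896 and 1500 CPM of Ccl5 in WT and 5084 and 3567 CPM in SDHA-KO. Sums over a class cannot tell fewer cells of a type apart from less RNA per cell, so both were measured in strict CD8 cells. The thinned share of strict CD8 cells with a Ccl5 UMI was 15.96% and 15.6% in WT and 8.13% and 5.10% in SDHA-KO. The unthinned mean of Ccl5 UMIs per strict CD8 cell with one was not lower in SDHA-KO, at 27.9 and 21.6 in WT and 30.5 and 49.55 in SDHA-KO. Strict CD8 cells had a median of 8608 and 9310 UMIs in WT and 10254 and 10072 in SDHA-KO.

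Stimulation moved the members in opposite directions. In CD8 cells of WT mice Ccl3 went from 0.719 and 0.370 CPM to 131 and 109.8 CPM, Ccl4 from 7.43 and 6.48 CPM to 287.5 and 272 CPM, and Xcl1 from 15.6 and 9.45 CPM to 249.5 and 211 CPM. These were log2 rises of 7.34 ± 0.48, 4.86 ± 0.38, and 3.76 ± 0.50. Ccl5 went the other way, from 595 and 545 CPM to 12.6 and 20.4 CPM, a log2 fall of −5.58 ± 0.25. All 4 members were called by edgeR, in a comparison where 65.7% of genes were called, 35.5% higher and 30.3% lower. In SDHA-KO CD8 cells the log2 changes were 9.57 ± 0.40 for Ccl3, 7.95 ± 0.41 for Ccl4, 5.11 ± 0.47 for Xcl1, and −4.60 ± 0.23 for Ccl5, all called among 68.2% of genes (37.2% higher and 30.9% lower). In both genotypes Ccl3 passed the filter on low counts through stimulated libraries alone. That fixed its direction in advance, so the 2 Ccl3 calls are no test. No unstimulated library overlapped a stimulated library of the same genotype for any member in CD8 cells, a description, since the share of all genes without overlap was not computed.

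In CD4 cells Xcl1 rose from 0.443 and 0.687 CPM to 12.6 and 8.39 CPM in WT (log2 3.96 ± 0.49, edgeR, adjusted p = 2.63e-05) and Ccl5 fell from 139.8 and 153.5 CPM to 12.1 and 19.3 CPM (−3.43 ± 0.28, adjusted p = 7.35e-07). Ccl3 and Ccl4 were not called in WT (adjusted p = 0.371 and 0.138), where 66.3% of genes were (36.2% higher and 30.1% lower). Without the single resting cell both were called in WT, with 66.3% of genes (adjusted p = 0.000108 and 1.34e-07), with stimulated levels of 24.8 and 9.63 CPM for Ccl3 and 105.9 and 59.2 CPM for Ccl4. Without unstimulated WT replicate 1, Ccl3 was called lower after stimulation (−1.80, adjusted p = 0.00378). With the cell left out, the resting Ccl3 level was 0 UMIs in both WT libraries, so its fitted fold is no bound. In SDHA-KO CD4 cells Ccl3, Ccl4, and Xcl1 rose and Ccl5 fell (−1.87 ± 0.26, edgeR, adjusted p = 6.37e-05), among 69.8% of genes called (36.6% higher and 33.2% lower). Apart from the library of the single resting cell, Ccl3 passed the filter through stimulated libraries in CD4 cells too. Calls of a Ccl3 rise in CD4 cells are therefore no test. The Ccl5 fall in SDHA-KO CD4 cells was lost in cells without a Trdc UMI (−1.12, adjusted p = 0.0625, with 69.7% of genes called). Without TMM scaling the median change of all genes lay at 0.30 in WT CD4, 0.57 in WT CD8, 0.26 in SDHA-KO CD4, and 0.39 in SDHA-KO CD8 cells on the log2 scale, less than the size of any called change of the members. It moved the calls from 5160 higher and 4295 lower to 6257 and 3308 in WT CD4, from 5217 and 4738 to 6242 and 3694 in SDHA-KO CD4, from 4644 and 3962 to 6918 and 2230 in WT CD8, and from 4875 and 4050 to 5959 and 3031 in SDHA-KO CD8 cells.

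**Figure D2:**
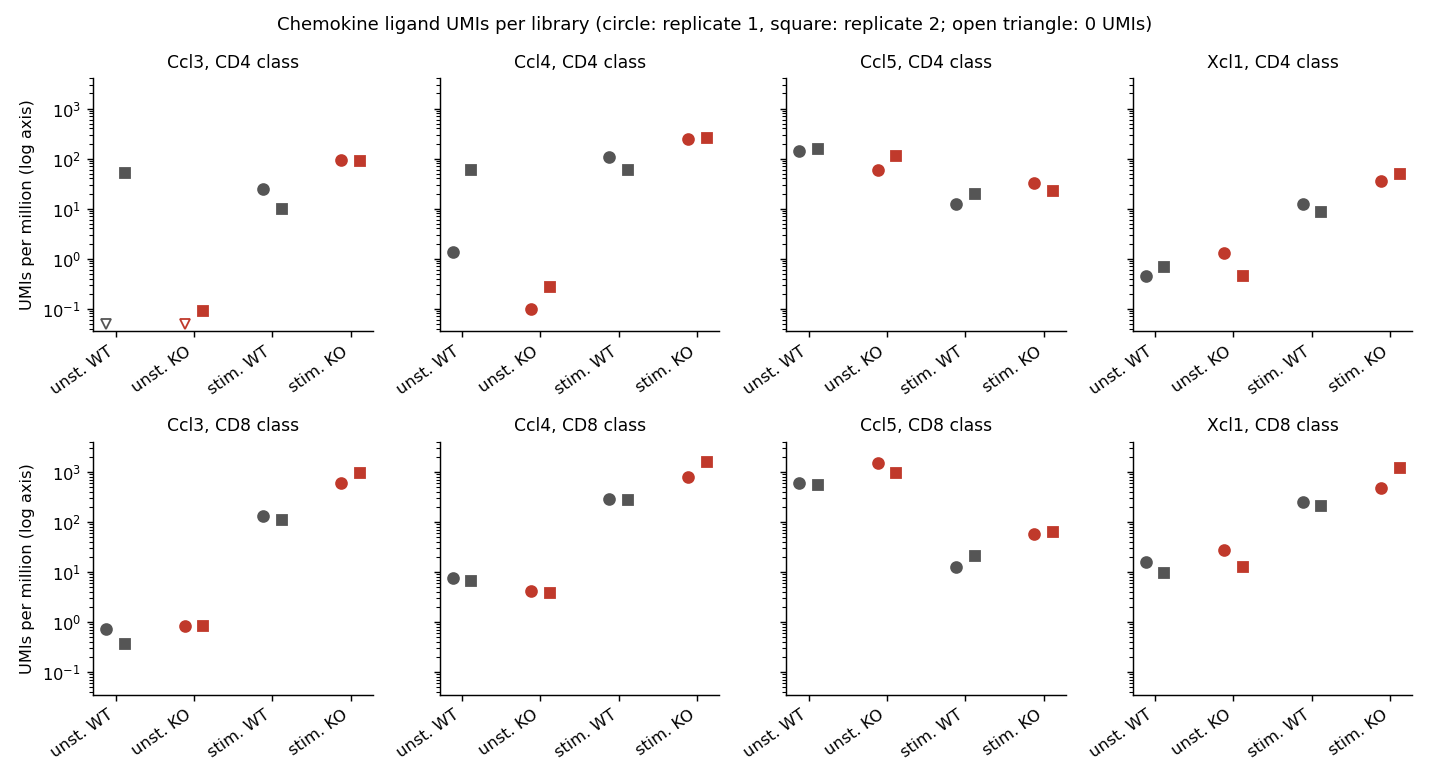
Levels (CPM, log axis) of the 4 members in each library, in the CD4 class (top) and the CD8 class (bottom), unstimulated and stimulated, with WT in gray, SDHA-KO in red, circles for replicate 1, squares for replicate 2, and open triangles at the foot for libraries with 0 UMIs. Ccl3, Ccl4, and Xcl1 sit higher after stimulation, except for the unstimulated WT square of Ccl3 and Ccl4 in the CD4 class (51.5 and 60.3 CPM), Ccl5 sits lower, and every stimulated SDHA-KO point lies above the stimulated WT points of its panel.

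After stimulation, all 4 members were higher in the CD8 class of SDHA-KO than in that of WT. In this class 59.1% and 56.1% of SDHA-KO cells held a Trdc UMI, against 3.67% and 4.92% of WT cells. The genotypes thus differed in cell mix, and levels in cells without a Trdc UMI are given below. Ccl3 rose from 131 and 109.8 CPM to 587 and 945 CPM, a log2 difference of 2.73 ± 0.18 (edgeR, adjusted p = 1.48e-06). Ccl4 rose from 287.5 and 272 CPM to 789.9 and 1590 CPM (2.15 ± 0.24, adjusted p = 2.80e-05 by edgeR). Both Ccl3 and Ccl4 were higher in the second SDHA-KO library than in the first. Xcl1 rose from 249.5 and 211 CPM to 469.9 and 1210 CPM (1.93 ± 0.34, edgeR, adjusted p = 0.000673). Ccl5, far below its resting level, was at 12.6 and 20.4 CPM (WT) and 57.6 and 64.3 CPM (SDHA-KO) (1.94 ± 0.24, edgeR, adjusted p = 5.50e-05). WT and SDHA-KO libraries did not overlap for any member, and the second SDHA-KO library was the higher for each. The share of all genes without overlap was not computed, so lack of overlap sets no member apart. In this comparison 50.4% of all genes tested were called and 26.8% were called higher, so a call by itself sets no gene apart.

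In stimulated CD4 cells the same members were higher in SDHA-KO at lower levels. Ccl3 was at 24.8 and 9.63 CPM in WT, against 92.5 and 90.9 CPM in SDHA-KO (log2 2.41 ± 0.70, edgeR, adjusted p = 0.0170). Ccl4 stood at 105.9 and 59.2 CPM against 246.7 and 253.7 CPM (1.58 ± 0.56, edgeR, adjusted p = 0.0398). WT libraries lay below SDHA-KO libraries for both genes. Xcl1 stood at 12.6 and 8.39 CPM against 36.3 and 49.4 CPM (2.02 ± 0.20, edgeR, adjusted p = 2.57e-05). Ccl5 stood at 12.1 and 19.3 CPM against 32.0 and 22.4 CPM (0.75 ± 0.27, edgeR, adjusted p = 0.0436). All 4 were called, where 43.2% of genes were and 22.7% were higher. Without the single unstimulated cell, the errors of Ccl3 and Ccl4 narrowed (2.41 ± 0.30, adjusted p = 0.000129, and 1.58 ± 0.19, adjusted p = 6.61e-05) and Ccl5 lost its call (adjusted p = 0.0519), with 43.3% of genes called. With that cell kept, leaving out stimulated WT replicate 2 ended the calls of Ccl3 (1.89, adjusted p = 0.122) and Ccl4 (1.25, 0.219), leaving out WT replicate 1 those of Ccl4 (2.05, 0.0657) and Ccl5 (0.46, 0.261), leaving out SDHA-KO replicate 1 that of Ccl5 (0.50, 0.206), and leaving out SDHA-KO replicate 2 that of Ccl4 (1.57, 0.0606), and DESeq2 called 1 member.

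The genotype difference was larger after stimulation than at rest for some members. In CD8 cells the difference between the states was 3.09 ± 0.80 for Ccl4 (edgeR interaction, adjusted p = 0.0167) and 0.98 ± 0.31 for Ccl5 (adjusted p = 0.0406), with 23.8% of genes called. For Ccl3 (2.23 ± 1.70, adjusted p = 0.392) and Xcl1 (1.36 ± 0.78, adjusted p = 0.245) it was not called in CD8 cells. Of 16 alternatives for CD8 cells, 1 called Ccl3 and 4 called Xcl1. Those for Xcl1 included cells without a Trdc UMI and the fit without stimulated SDHA-KO replicate 1 (1.88). The Ccl4 call in CD8 cells was lost without any 1 of the 4 unstimulated libraries (2.99 to 3.18, adjusted p 0.0839 to 0.101), and that of Ccl5 without either unstimulated WT library, unstimulated SDHA-KO replicate 2, stimulated WT replicate 1, or stimulated SDHA-KO replicate 2 (0.65 to 1.03). In CD4 cells Ccl3 (11.4 ± 2.25, adjusted p = 0.00508), Ccl4 (8.94 ± 1.75, adjusted p = 0.00481), and Ccl5 (1.57 ± 0.37, adjusted p = 0.0132) were called by edgeR, with 21.4% of genes. Without the single resting cell only Ccl5 was called in CD4 cells (1.30, adjusted p = 0.0373), Ccl4 gave 3.98 (0.0610), and Ccl3 gave −0.76 (0.928), with 21.4% of genes called. Ccl5 was also not called without unstimulated WT replicate 2 (1.498, adjusted p = 0.0643).

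Cells with a Trdc UMI contributed unequally to the 4 members. In the stimulated SDHA-KO CD8 class they were 59.1% and 56.1% of the cells. They held 71.1% and 55.3% of Ccl3 UMIs and 65.9% and 55.3% of Ccl4 UMIs, just below their share of cells in replicate 2. Of Ccl5 UMIs they held 78.3% and 80.1%, but of Xcl1 UMIs 36.4% and 34.9%. Xcl1 was thus lower in cells with a Trdc UMI (275.5 and 706.4 CPM) than in those without (788.6 and 1959 CPM) in both SDHA-KO libraries. Among CD8-class cells without a Trdc UMI, all 4 members were called higher in SDHA-KO, with 49.3% of genes called. Ccl3 went from 128.6 and 106.2 CPM to 447.9 and 1050 CPM (log2 2.70), Ccl4 from 278.2 and 273.8 to 711.2 and 1769 CPM (2.20), Xcl1 from 256.7 and 207.5 to 788.6 and 1959 CPM (2.60), and Ccl5 from 11.4 and 16.3 to 33.0 and 31.7 CPM (1.25). For these cells the Xcl1 difference between the states was also called (3.56, edgeR, adjusted p = 0.00669, with 24% of genes).

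**Figure D3:**
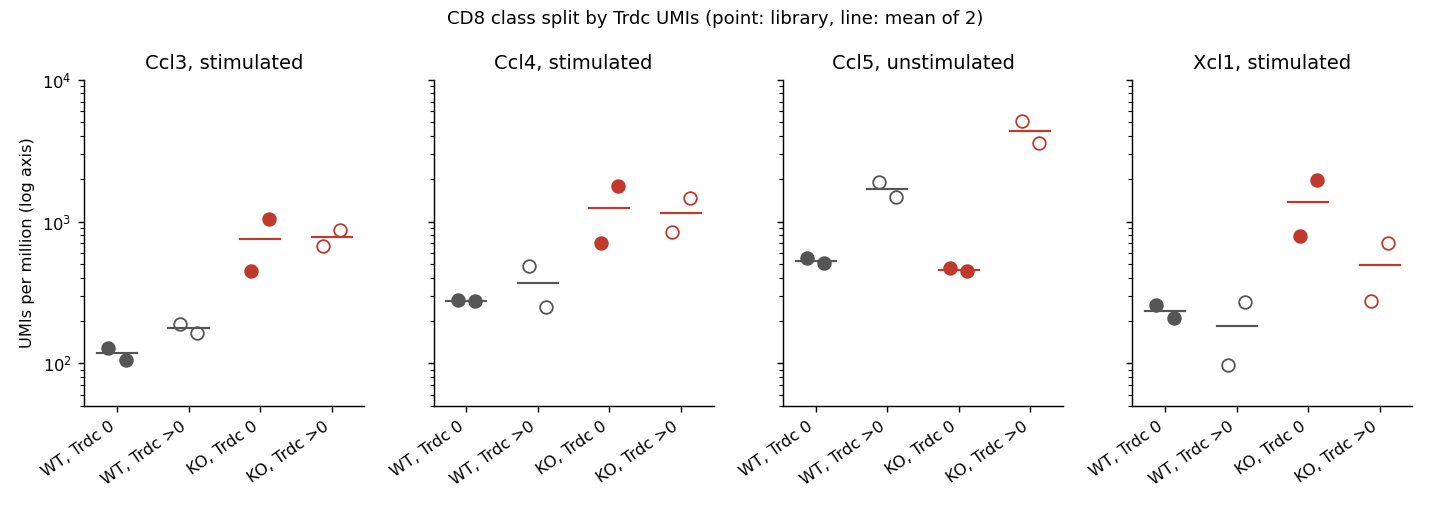
Levels (CPM, log axis) in the CD8 class split into cells without a Trdc UMI (filled) and with one (open), for stimulated Ccl3, Ccl4, and Xcl1 and unstimulated Ccl5, with 1 point per library (WT gray, SDHA-KO red) and a line at the mean of 2. Unstimulated Ccl5 is at 445.4 to 549.8 CPM in cells without a Trdc UMI of both genotypes and at 5084 and 3567 CPM in SDHA-KO cells with one.

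In the CD4 class, cells with a Trdc UMI were 10.1% and 8.64% of stimulated SDHA-KO cells and held 44.8% and 38.8% of Ccl3 UMIs, 35.2% and 20.9% of Ccl4 UMIs, 52.6% and 22.6% of Ccl5 UMIs, and 10.7% and 13.4% of Xcl1 UMIs. Among CD4-class cells without a Trdc UMI, and without the single resting cell, Ccl3 was higher by 1.77 ± 0.30 (edgeR, adjusted p = 0.00133), Ccl4 by 1.25 ± 0.20 (0.000456), and Xcl1 by 1.97 (4.30e-05), with 42.7% of genes called. Ccl5 was at 12.2 and 18.7 CPM in WT and 17.1 and 19.3 CPM in SDHA-KO in the CD4 cells without a Trdc UMI, and its call was lost (0.21, adjusted p = 0.765). With the single cell kept, Xcl1 was the only member called in CD4 cells without a Trdc UMI, with 42.6% of genes.

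Markers of other cells were measured in the same sums. The 4 γδ T cell markers summed to 252.5 and 259.1 CPM in stimulated SDHA-KO CD8 cells and to 17.6 and 20.6 CPM in WT. Of 7 NK cell markers, 3 to 6 had UMIs per library and class, and their sum in the stimulated CD8 class was 4.21 and 3.36 CPM in WT and 29.3 and 22.5 CPM in SDHA-KO, with Klra8 at 0 in every library and Ncr1 at 0.58 and 0 CPM in SDHA-KO. In stimulated CD4 cells the NK sum was 0.593 and 0.619 CPM in WT and 20.5 and 6.57 CPM in SDHA-KO. B cell markers reached 344.6 CPM in the CD8 class of stimulated SDHA-KO replicate 1, where Igkc alone was at 227 CPM, and myeloid markers stayed at or below 8.63 CPM. In the stimulated CD8 class the myeloid marker Cd68 stood at 2.20 and 2.82 CPM in WT and 4.45 and 5.55 in SDHA-KO. Fcgr3 overlapped there (1.53 and 2.60 against 2.81 and 1.30 CPM), and Adgre1 was at 0 in CD8 cells of every library. The Cd8a and Cd8b1 sum in the stimulated CD8 class was 464.3 and 498.7 CPM in WT and 211 and 273.3 CPM in SDHA-KO. The part of NK and B cell RNA in the member levels was not tested.

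In the stimulated CD8 class, more cells had a UMI of each member in SDHA-KO libraries, and cells with a UMI held more of them before thinning. Ccl3 was detected in 29.9% and 25.5% of WT cells and in 59.3% and 67.9% of SDHA-KO cells. With each cell thinned to 5000 UMIs, which left out 2 to 99 shallower cells per library and class, the shares were 16.4% and 13.8% against 37.3% and 52.8%. Thinned shares were 29.4% and 25.7% against 49.9% and 61.5% for Ccl4, 25.4% and 21.5% against 41.4% and 55.1% for Xcl1, and 4.52% and 4.21% against 9.27% and 14.6% for Ccl5. Each thinned SDHA-KO share was above both WT shares of its gene. The unthinned shares were 48.2% and 43.4% against 71.8% and 76.8% for Ccl4, 43.1% and 36.9% against 58.1% and 72.0% for Xcl1, and 12.4% and 15.3% against 28.0% and 39.6% for Ccl5. A CD8 cell with a Ccl3 UMI held 10.9 and 11.5 Ccl3 UMIs on average in WT and 36.6 and 51.2 in SDHA-KO, unthinned. The corresponding means were 14.8 and 16.8 against 40.7 and 76.3 for Ccl4, 14.3 and 15.3 against 29.9 and 61.9 for Xcl1, and 2.51 and 3.55 against 7.61 and 5.97 for Ccl5. CD8 cells of SDHA-KO were also deeper, with a median of 30662 and 29912 UMIs per cell against 13152 and 13265 in WT. These unthinned means therefore cannot tell more RNA per cell apart from greater depth. An exact permutation test of 2 libraries against 2 cannot reach 0.05, and no other test of the shares was run. No stimulated subset was labeled naive, so the stimulated libraries gave no background share. Whether some of their cells had stayed unactivated was not tested. The share in unstimulated CD4 naive cells was 0% for Ccl3 and at most 0.251% for Ccl4.

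In CD4 cells the thinned shares differed less between the genotypes. They were 6.78% and 3.70% in WT against 9.03% and 8.18% in SDHA-KO for Ccl3 and 16.9% and 14.3% against 24.6% and 25.0% for Ccl4. For Xcl1 they were 7.13% and 4.43% against 7.71% and 8.43%, and for Ccl5 2.85% and 2.96% against 5.17% and 5.93%. The unthinned Xcl1 shares overlapped (16.997% and 13.2% against 16.4% and 21.3%), while those of Ccl3 (15.2% and 11.1% against 20.1% and 19.3%), Ccl4 (35.6% and 31.5% against 47.5% and 46.1%), and Ccl5 (9.55% and 11.5% against 15.7% and 21.0%) did not. A CD4 cell with a Ccl5 UMI held 3.74 and 5.05 of them in WT and 5.06 and 2.83 in SDHA-KO, so these means overlapped.

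**Figure D4:**
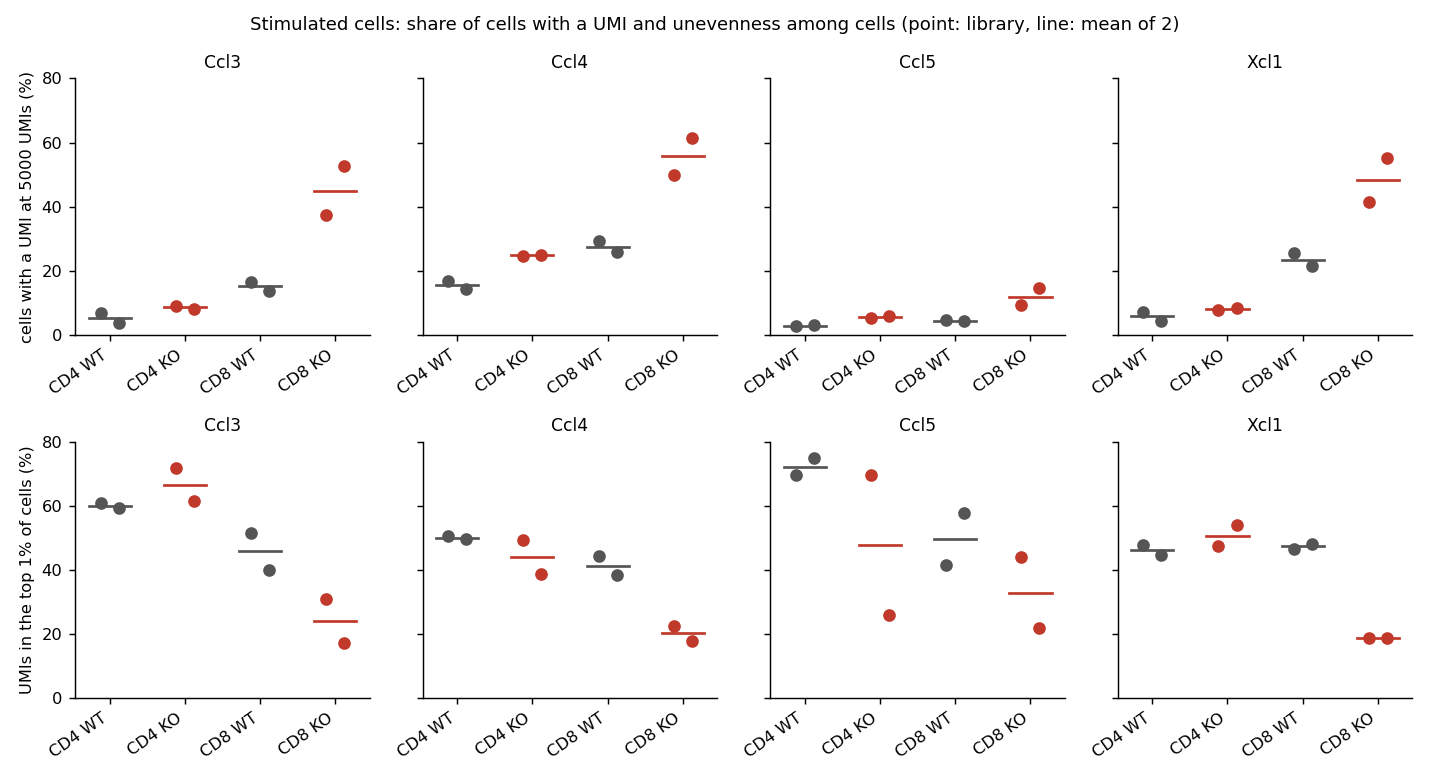
Share of stimulated cells with a UMI after thinning to 5000 UMIs per cell (top, percent) and share of UMIs in the top 1% of cells (bottom, percent, unthinned), per member, class, and genotype, with 1 point per library (WT gray, SDHA-KO red) and a line at the mean of 2. CD8 SDHA-KO points are the highest of each top panel and, for Ccl3, Ccl4, and Xcl1, the lowest of each bottom panel.

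The UMIs of each member were concentrated in few cells. For Ccl3, Ccl4, and Xcl1 this was more so in stimulated CD4 than in stimulated CD8 cells of SDHA-KO libraries. For Ccl5 the classes overlapped, with 69.7% and 25.9% of UMIs in the top 1% of CD4 cells and 44.0% and 21.8% in CD8 cells. The top 1% of stimulated CD4 cells held 60.9% and 59.3% of Ccl3 UMIs in WT and 71.7% and 61.6% in SDHA-KO. In CD8 cells that share was 51.6% and 40.1% in WT and 30.9% and 17.3% in SDHA-KO for Ccl3, 44.3% and 38.4% against 22.6% and 17.9% for Ccl4, and 46.7% and 48.1% against 18.7% and 19.0% for Xcl1. Leaving out the top 1% of cells, CD8 levels were 65.5 and 67.5 CPM in WT and 418 and 803 CPM in SDHA-KO for Ccl3, and 137.5 and 113.2 against 388.7 and 1001 CPM for Xcl1. The SDHA-KO libraries lay above the WT libraries for both genes without these cells too.

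Cells with a Ccl3 UMI held Ccl4 more often than cells without one. After thinning, Ccl4 was found in 65.9% and 67.8% of stimulated WT CD8 cells with a Ccl3 UMI and in 22.2% and 19.0% of those without. In SDHA-KO CD8 cells the shares were 84.1% and 85.0% with Ccl3, and 29.6% and 35.3% without. In CD4 cells they were 52.6% and 37.1% against 14.3% and 13.4% in WT, and 64.6% and 70.4% against 20.7% and 20.9% in SDHA-KO. Xcl1 was found in 46.4% and 43.5% of WT CD8 cells with a Ccl3 UMI and in 21.3% and 18.0% of those without. These shares are descriptions over cells of 1 library each, and no p-value was computed.

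CD8 cells held more of the members than CD4 cells after stimulation. To compare the classes without the authors' clusters, strict classes were used, with CD4 cells required to hold a UMI of Cd4 and none of Cd8a, Cd8b1, and Trdc, and with the library as a block. In stimulated WT, Xcl1 stood at 7.02 and 4.90 CPM in strict CD4 cells and at 257.7 and 203.4 CPM in strict CD8 cells, a log2 difference of 5.25 ± 0.10 (edgeR, adjusted p = 1.56e-15). Ccl3 was higher in CD8 cells by 2.75 ± 0.21 and Ccl4 by 1.80 ± 0.22, both called, and Ccl5 by 0.99 ± 0.41 (adjusted p = 0.104). In stimulated SDHA-KO, the differences were 6.49 ± 0.09 for Xcl1, 3.40 ± 0.17 for Ccl3, 2.46 ± 0.21 for Ccl4, and 1.07 ± 0.44 for Ccl5 (adjusted p = 0.0862). In these comparisons 10.8% and 12.5% of genes were called higher in CD8 cells, 21.7% and 26.9% in either direction. DESeq2 called 1 member in each. Ccl5 was called higher in CD8 cells of WT without stimulated WT replicate 2 (1.61, adjusted p = 0.0171) or without either unstimulated SDHA-KO library (0.99, 0.0121 and 0.0123), and in SDHA-KO without either unstimulated SDHA-KO or either stimulated WT library (1.07 to 1.11).

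The genotype effect on Xcl1 was larger in strict CD8 than in strict CD4 cells. Stimulated strict CD8 cells numbered 798 and 790 in WT and 245 and 213 in SDHA-KO, from classes of 844 and 834 and of 511 and 396 cells. Stimulated strict CD4 cells numbered 497 and 558 in WT and 640 and 765 in SDHA-KO. Cd4, which defines them, stood at 98.2 and 101.2 CPM in the stimulated WT CD4 class and 158.3 and 151.6 CPM in SDHA-KO. The strict classes thus kept different shares of each genotype. Xcl1 went from 7.02 and 4.90 to 9.62 and 17.1 CPM in CD4 cells and from 257.7 and 203.4 to 750.3 and 1680 CPM in CD8 cells, a difference of effects of 1.24 ± 0.18 (edgeR interaction, adjusted p = 0.000298, with 10.3% of genes called). It was not called in cells with under 10% mitochondrial UMIs (0.57, adjusted p = 0.169) or by DESeq2. The corresponding values were 0.66 ± 0.29 for Ccl3 (adjusted p = 0.180), 0.66 ± 0.30 for Ccl4 (0.195), and 0.08 ± 0.61 for Ccl5 (0.963). Without the single resting cell Ccl4 was called as well (0.66, adjusted p = 0.0262, with 10.3% of genes), and without stimulated SDHA-KO replicate 1 both Ccl3 (1.13, adjusted p = 0.00502) and Ccl4 (1.08, 0.0476) were.

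At rest, strict CD8 cells held more Ccl5 than strict CD4 cells in WT (2.45 ± 0.28, edgeR, adjusted p = 1.03e-05) and SDHA-KO (3.38 ± 0.33, adjusted p = 1.69e-06), and more Xcl1 (4.04 ± 0.47 and 4.41 ± 0.67, adjusted p = 1.09e-05 and 0.000232). Ccl3 was lower in resting WT CD8 cells (−6.65 ± 0.88, edgeR, adjusted p = 5.75e-05), as was Ccl4 (−2.57 ± 0.63, 0.0106), and both turned without the single cell (5.59, adjusted p = 0.629, and 4.58, 0.0112). Of all genes, 13.3% were called in WT (13.2% without the cell) and 14% in SDHA-KO. Resting strict CD4 cells numbered 522 and 540 in WT and 916 and 1043 in SDHA-KO. Cd4 stood at 154.7 and 154.8 CPM in the resting WT CD4 class and at 549.6 and 630.6 CPM in SDHA-KO. No member was called for a difference of the genotype effect between the classes at rest, where 0.182% of genes were, although Ccl5 was without unstimulated SDHA-KO replicate 2 (2.77, adjusted p = 0.0389). DESeq2 called 2 of the 4 members in resting WT.

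In most stimulated subsets the direction of the genotype difference was the same. Ccl3 was called higher in SDHA-KO in 11 of 12 tested subsets, with log2 differences of 1.35 to 4.21 (median 2.28) and CD4 Tcm3 as the exception. Ccl4 was called higher in 9 of 12 (0.66 to 3.21), not in CD4 Tem1, Tem2, or Tem7. Xcl1 was called higher in 9 of 12 (0.65 to 3.47), all 8 CD4 subsets and, among CD8 subsets, Tcm2 alone. Ccl5 was called higher in 5 of 10 subsets and ranged from −1.38 to 4.54. Over the 12 subsets, 20.5% of gene tests were called in either direction and 9.85% higher. Leaving out cells with a Trdc UMI left 8, 7, and 9 subsets called higher for Ccl3, Ccl4, and Xcl1, and 3 higher and 1 lower for Ccl5, with 17.1% of gene tests called in either direction and 8.23% higher.

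The subsets also differed in level. The largest Ccl3 difference was in CD8 Tcm2 cells, with 12.9 and 23.5 CPM in WT and 396 and 293 CPM in SDHA-KO (4.21 ± 0.23, edgeR, adjusted p = 1.68e-06, with 27.4% of genes called), and Xcl1 rose by 3.47 ± 0.15 there (adjusted p = 3.00e-07). CD4 Tem7 cells, 3.102% to 8.36% of the stimulated CD4 class, held 61.0% and 48.6% of the Ccl3 UMIs of SDHA-KO CD4 cells and 13.7% and 31.1% in WT, at 171 and 303 CPM in WT against 1016 and 1031 CPM in SDHA-KO. CD8 Tcm5 cells reached 3160 and 2106 CPM of Ccl3 in SDHA-KO, against 360 and 375 in WT, but over 6 and 13 SDHA-KO cells. In SDHA-KO, CD8 Tem1 cells were 26.6% and 28.0% of the CD8 class and held 34.8% and 36.7% of its Ccl3 UMIs, while in WT they were 1.90% and 1.92% of it and held 3.20% and 0.408%, and CD8 Tem2 cells held 49.8% and 46.9% in WT.

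**Figure D5:**
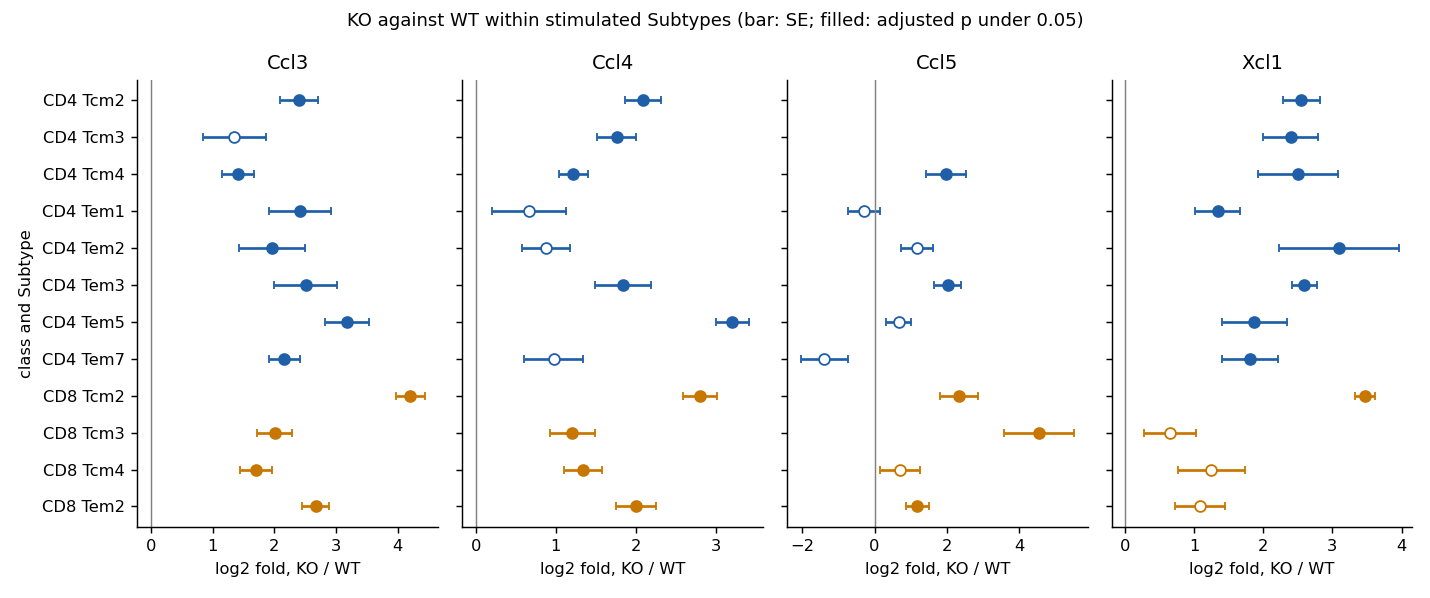
Log2 fold change (SDHA-KO over WT) of each member within each stimulated subset that could be tested, with bars of 1 SE, CD4 subsets in blue and CD8 subsets in orange, and filled points for an adjusted p under 0.05 (edgeR). All points of Ccl3, Ccl4, and Xcl1 lie above 0, and those of Ccl5 run from −1.38 in CD4 Tem7 to 4.54 in CD8 Tcm3.

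Other chemokine genes were set beside the members from lists of related genes. Of 32 other chemokine ligands listed, 7 passed the filter on low counts in CD4 cells and 6 in CD8 cells, some through their stimulated SDHA-KO libraries alone, so a count of calls says nothing of the list. In stimulated CD4 cells Ccl20, a ligand of CCR6, had 0 CPM in both WT libraries and 0.817 and 3.31 CPM in SDHA-KO. Ccl9, a relative of Ccl3, stood at 0.040 and 0.034 against 3.30 and 2.23 CPM. Both passed the filter through these SDHA-KO libraries alone, which fixed the direction in advance, so their calls are no test. Ccl27a fell by 1.65 on the log2 scale (5.66 and 5.50 against 1.78 and 1.82 CPM). In stimulated CD8 cells Ccl1, a ligand of CCR8, stood at 0.526 and 0.090 CPM in WT and 3.92 and 32.9 CPM in SDHA-KO. Ccl17, a ligand of CCR4, stood at 0.048 and 0 against 2.22 and 1.78 CPM. Ccl1 and Ccl17 also passed the filter through SDHA-KO libraries alone. Ccl27a fell by 1.00 in CD8 cells.

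Ccrl2, an atypical chemokine receptor that binds chemerin, was lower in stimulated SDHA-KO CD4 cells (−1.37 ± 0.37, edgeR, adjusted p = 0.0126). Of 15 transcription factors of chemokine and effector genes, 4 were higher and 4 lower in stimulated CD4 cells, where 43.2% of all genes were called, and 6 higher and 3 lower in stimulated CD8 cells, where 50.4% were, so these shares lay near those of all genes. Batf, an AP-1 family factor of activated T cells, rose by 1.10 ± 0.17 in CD4 and 1.43 ± 0.16 in CD8 cells, and Eomes, a T-box factor of cytotoxic cells, by 1.02 ± 0.24 and 1.05 ± 0.17. In CD4 cells Nfatc2 (−0.53 ± 0.09) and Nfatc1 (−0.38 ± 0.09), which carry calcium signals to the nucleus, were lower, and in CD8 cells Klf13 (−0.55 ± 0.07), a regulator of Ccl5, and Runx3 (−0.46 ± 0.10) were.

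Over the 16 sums of library and class, 5762 genes averaging 20 CPM or more were compared with each member by Pearson correlation of log2(CPM + 1), which describes likeness and carries no p-value because sums share library, depth, and composition. Ccl3 was most like Ccl4 (0.975), Ifng (0.952), and Bud23 (0.943), and Ccl4 most like Ccl3, Alg5 (0.949), and Cers2 (0.946). Xcl1 was most like Sec11c (0.979), Dennd4a (0.965), and Sec61b (0.954), and Ccl5 most like Tpst2 (0.951), Sla2 (0.939), and Sike1 (0.935). The correlation of Ccl5 was −0.604 with Ccl3, −0.598 with Ccl4, and −0.299 with Xcl1.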

How the data were processed

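Splenic T cells were measured in 8 10x Genomics single-cell libraries, 2 per group, and every library was used. The authors demultiplexed reads with bcl2fastq, aligned and counted them with Cell Ranger (build mm10, per the labels), filtered cells on gene number in Seurat, removed clusters without Cd3 transcripts, and deposited raw UMI counts per gene and cell. Versions of Cell Ranger and of the annotation, and the strand setting, are not given in the sources used here. The authors also deposited each cell's UMI and gene counts, the percent of UMIs from the 13 mitochondrially encoded genes, the ratio of Cd4 to Cd8a on a log10 scale, the library name, the class, and the Subtype. Totals, gene numbers, and percentages were checked against the matrix and differed in 0 cells. No doublet caller was run.

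UMIs were summed per library and class, strict class, or Subtype, because cells of 1 library are not replicates. Statements on overlap between libraries are descriptions, because the share of all genes without overlap was not computed. Low genes were filtered with filterByExpr at its defaults, which ask for a count of 10 in the smallest group and 15 in total, and the rest were scaled with TMM and tested with glmQLFit and glmQLFTest of edgeR 4.0.16 (R 4.3.3), with Benjamini-Hochberg adjustment over all genes tested and an adjusted p under 0.05 called. Classes were tested over 4 groups and 8 libraries, strict classes with the library as a block, and Subtypes over 4 libraries with at least 20 cells each (23 of 32). Counts were also simulated with most genes unchanged and every gene at the common spread of its fit (8.24% to 9.86%). On these the edgeR fit recovered 94% of genes changed 2-fold in stimulated CD4 cells (14264 genes). It recovered 100% in stimulated CD8 cells (13095 genes) and 82% in CD8 Tem2 cells (11141 genes). Members could vary more between libraries, as Ccl4 did in stimulated SDHA-KO CD8 cells (789.9 and 1590 CPM), so these shares say nothing of their recovery. Shares were computed per cell, unthinned and after thinning to 5000 UMIs (Python 3.11.15, numpy 2.4.6, scipy 1.17.1, pandas 2.3.3, with matplotlib 3.10.9 for plots). Alternatives used DESeq2 1.42.0, limma 3.58.1, no TMM, no filter, other sets of cells or libraries, and a replicate block.

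The genes named are the 4 members, Sdha, for each member the 3 most correlated genes, and from each list the 2 called genes with the largest rise and the 2 with the largest fall in stimulated cells. The genes used to describe the single resting cell were named after their values were seen, and 1 listed gene is not reported here. The members, lists, and tests were chosen with earlier results of these data known. Totals of 10947009 to 51398728 UMIs per library set the counting error. For a count of 0, 3 UMIs were taken as an approximate upper bound, which is not a hard limit.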

Additional observations from a re-analysis of the deposited data

Results flagged for a closer look

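The SDHA-KO effect differed between unstimulated and stimulated cells for 5 results, by the interaction term of edgeR. In CD4 cells the difference was 11.4 on the log2 scale for Ccl3, 8.94 for Ccl4, and 1.57 for Ccl5. The Ccl3 and Ccl4 values set stimulated cells against a resting WT level that 1 cell supplied, and without that cell they were −0.76 (adjusted p = 0.928) and 3.98 (0.0610), while Ccl5 gave 1.30 (0.0373). In CD8 cells the difference was 3.09 for Ccl4 and 0.98 for Ccl5.

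The SDHA-KO effect in stimulated cells also differed between strict CD8 and strict CD4 cells for Xcl1, by 1.24 on the log2 scale (edgeR interaction, adjusted p = 0.000298). It was 0.57 (adjusted p = 0.169) in cells with under 10% mitochondrial UMIs, and DESeq2 did not call it. Both SDHA-KO libraries lay above both WT libraries in each class.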

How the results depend on the processing

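Counts here are of the 4 members called, out of 4 unless subsets are named. Of 887 single member values under alternatives, 760 had the same direction and side of the threshold, 47 gained a call, 49 lost one, and 31 changed sign. Stimulated against unstimulated CD8 cells gave 4 called members under every alternative, in WT and in SDHA-KO. For stimulated SDHA-KO against WT CD8 cells, Ccl3, Ccl4, and Xcl1 were called under every alternative and Ccl5 under 12 of 13. For stimulated against unstimulated SDHA-KO CD4 cells, Ccl3, Ccl4, and Xcl1 were called under every alternative and Ccl5 under 13 of 15. Where the filter was used, Ccl3 passed it through stimulated libraries, so its calls of a rise after stimulation are no test in either class.

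For SDHA-KO against WT, unstimulated CD4 cells went from 0 to 1 (DESeq2), 3 (no filter), 2 (only the compared libraries), and 1 (strict class), and unstimulated CD8 cells from 0 to 1 without TMM, without a filter, with only the compared libraries, with cells under 10% mitochondrial UMIs, and in the strict class. Stimulated CD4 cells went from 4 to 1 (DESeq2), 2 (under 10% mitochondrial UMIs), 1 (no Trdc UMI), and 1 (strict class). Of all genes, 43.2% were called in the main fit of these cells and 42.6% without cells with a Trdc UMI. Stimulated against unstimulated WT CD4 cells went from 2 to 4 without a filter, without the single resting cell, and without it and cells with a Trdc UMI. The difference of the effect between states went in CD4 cells from 3 to 1 without the single cell and 0 without it and cells with a Trdc UMI, and in CD8 cells from 2 to 1 (DESeq2, no TMM, and under 10% mitochondrial UMIs). For CD8 against CD4, DESeq2 called 2 in unstimulated WT and 1 in each stimulated group. The difference of the effect between classes went from 0 to 2 without a filter at rest, and after stimulation from 1 to 0 (DESeq2, and under 10% mitochondrial UMIs), 3 (no filter), and 2 (without the single cell). Calls within unstimulated subsets went from 4 to 1 (DESeq2) and 7 (no filter). Why these counts moved was not tested, other than through the cells or libraries each alternative leaves out. The share of all genes called is not given for most alternatives. Where it is missing, a moved count cannot be told apart from a change in calls over all genes.

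Leaving out each library gave 0 to 2 called members for unstimulated CD4 and 0 to 1 for unstimulated CD8 cells, 2 to 3 for stimulated CD4 cells, 2 to 4 for stimulation of WT CD4 cells, 0 to 3 for the difference between states in either class, 2 to 4 for CD8 against CD4 in unstimulated WT, 2 to 2 in unstimulated SDHA-KO, 3 to 4 in both stimulated groups, 0 to 1 and 1 to 3 for the difference between classes at rest and after stimulation, 2 to 7 over unstimulated subsets, and 27 to 39 over stimulated subsets (34 with all). Where a group was left with 1 library, it was assumed to vary like the others. The share of all genes called is not given for these fits, so their counts carry the same limit.

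Signs that changed were these, in log2. SDHA-KO against WT at rest in CD4 cells gave Ccl3 3.28 (without WT replicate 2) and 3.17 (without the single cell), and Xcl1 −0.38 (without SDHA-KO replicate 1), −0.70 (no Trdc UMI, with or without the single cell), and −1.59 (strict). In CD8 cells it gave Ccl3 −0.21 (no Trdc UMI) and −0.37 (strict), Ccl5 −0.32 and −0.72, and Xcl1 −0.96 and −1.22, with −0.061 for Xcl1 without SDHA-KO replicate 1. Stimulation gave Ccl3 in WT CD4 cells 11.4 (without unstimulated WT replicate 2), 11.3 (without the single cell), 11.2 (also without cells with a Trdc UMI), and 0.12 (limma on mean log values of cells), and Ccl5 in SDHA-KO CD4 cells 0.041 (limma). The difference between states gave Ccl3 in CD4 cells −0.86 (without unstimulated WT replicate 2) and −0.76 (without the single cell), and Ccl5 in CD8 cells −0.12 (limma). CD8 against CD4 in unstimulated WT gave Ccl3 5.59 (without the single cell) and 6.37 (without WT replicate 2), and Ccl4 4.58, 4.28, and 0.088 (DESeq2). The difference between classes gave Xcl1 at rest −0.59 (without WT replicate 2) and −0.62 (without SDHA-KO replicate 2), and Ccl5 after stimulation −0.026 (under 10% mitochondrial UMIs), −0.54 (without WT replicate 2), and −0.41 (without SDHA-KO replicate 1). Leaving out each library, these values ranged from −12.2 to 3.28 (Ccl3) and −0.38 to 1.19 (Xcl1) in resting CD4 cells, from −0.061 to 1.04 (Xcl1) in resting CD8 cells, from −1.80 to 11.4 for stimulation of Ccl3 and −0.86 to 14.6 for its difference between states in CD4 cells, from −8.62 to 6.37 (Ccl3) and −3.65 to 4.28 (Ccl4) for CD8 against CD4 in unstimulated WT, and from −0.62 to 4.86 (Xcl1, at rest) and −0.54 to 0.75 (Ccl5, stimulated) for the difference between classes.

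Thinning to 5000 UMIs moved the mean share of cells with a UMI in most groups. The thinned means of WT and SDHA-KO were 2.90% and 2.81% for Ccl5 in unstimulated CD4 cells, with 17.6% in unstimulated WT CD8 cells. In stimulated CD4 cells they were 5.24% and 8.61% for Ccl3, 15.6% and 24.8% for Ccl4, 2.91% and 5.55% for Ccl5, and 5.78% and 8.07% for Xcl1, and in stimulated CD8 cells 15.1% and 45.0%, 27.5% and 55.7%, 4.36% and 11.9%, and 23.5% and 48.3%. Without cells with a Trdc UMI, the mean share of UMIs in the top 1% of cells moved to 29.3% (WT) and 37.9% (SDHA-KO) for Ccl5 in unstimulated CD8 cells, 85.1% in unstimulated SDHA-KO CD4 cells, 57.5% for Ccl3 and 36.1% for Ccl4 in stimulated SDHA-KO CD4 cells, and 17.6% for Xcl1 in stimulated SDHA-KO CD8 cells.

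Same-numbered libraries did not deviate together (correlations of −0.08 to 0.06 across genes), so the numbers were not taken as pairs. With the replicate block the class comparisons gave the counts of called members found without it (0, 4, 2, 4, and 3 for the CD4 class, 0, 4, 4, 4, and 2 for the CD8 class), and the subsets gave 3 at rest and 37 after stimulation. Depth limited Ccl3 and Ccl4 at rest, where most libraries held few or no UMIs.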
